A study of Mus musculus with 16 samples.

Results

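The 8 postnatal day 14 (P14) libraries of a mouse prefrontal cortex RNA-seq series were ordered by how strongly they carried the transcripts of neuronal activity, whatever their stress label. Each library received a score, the mean over Fos, Fosb, Egr4, Arc and Npas4 of log2(normalized read count + 1), and the libraries were chosen by these measured values: the 4 highest were set against the 4 lowest. The series has 16 libraries, 4 in each of 4 groups, made from dissected medial prefrontal cortex of male ICR mice, an outbred stock. Dams had either been exposed to stress while pregnant, the PNS label, or left as controls, the Ctrl label, and offspring were collected on postnatal day 1 or day 14. The kind and days of stress, any genetic change, and the litter of each replicate were not given in the sources used here. The p-values therefore cover only how much these libraries vary, which may be technical in part. The high-score set held PNS replicates 1, 2 and 4 and Ctrl replicate 3, and the low-score set held Ctrl replicates 1, 2 and 4 and PNS replicate 3. These sets were made from measured values and are not groups of the study, so differences between them are given as a description with no test.

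Immediate early genes are transcribed within minutes of synaptic activity, without new protein synthesis, when calcium entry through NMDA receptors and voltage-gated channels activates kinases that act on CREB, SRF and MEF2 already bound to DNA. Their first products are transcription factors of the AP-1, Egr, Nr4a and Npas4 families, which in turn drive effectors at synapses, and phosphatases and adaptors that shut the signalling down. In the cortex of young mice their transcripts are widely used as a record of recent neuronal firing. Fos and Fosb encode AP-1 subunits, Egr4 a zinc finger factor of the Egr family, Npas4 a neuron-specific factor that follows calcium entry, and Arc a cytoskeletal protein that promotes the removal of AMPA receptors from synapses.

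The start regions of several of these genes are shown with the places where 3 short motifs match, those known to be bound by CREB and SRF. The windows run from 250 bases before to 50 bases after an annotated start (RefSeq, GRCm38.p6) and are printed 5′ to 3′ on the strand of the gene, with capitals for the CREB half-site TGACG on either strand, for the full site TGACGTCA and for the CArG box, the element bound by SRF. Shown are the 4 rule genes with a window, then Egr2 and Dusp1, a transcription factor and a feedback phosphatase with large differences between the sets, and Nr4a3, which followed the stress label instead. The windows are chr12:85473640-85473939 on the plus strand for Fos, chr7:19309996-19310295 on the minus strand for Fosb, chr6:85513540-85513839 on the minus strand for Egr4 and chr19:4989922-4990221 on the minus strand for Npas4. The others are chr10:67537619-67537918 on the plus strand for Egr2, 1 of 5 listed for that gene, chr17:26508423-26508722 on the minus strand for Dusp1 and chr4:48045055-48045354 on the plus strand for Nr4a3. No window was used for Arc.
Fos: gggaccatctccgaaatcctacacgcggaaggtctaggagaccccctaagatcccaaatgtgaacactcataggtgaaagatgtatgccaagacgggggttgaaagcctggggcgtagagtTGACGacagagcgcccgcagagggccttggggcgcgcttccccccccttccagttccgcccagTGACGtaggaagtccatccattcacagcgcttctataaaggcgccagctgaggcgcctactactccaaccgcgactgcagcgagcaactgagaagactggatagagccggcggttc
Fosb: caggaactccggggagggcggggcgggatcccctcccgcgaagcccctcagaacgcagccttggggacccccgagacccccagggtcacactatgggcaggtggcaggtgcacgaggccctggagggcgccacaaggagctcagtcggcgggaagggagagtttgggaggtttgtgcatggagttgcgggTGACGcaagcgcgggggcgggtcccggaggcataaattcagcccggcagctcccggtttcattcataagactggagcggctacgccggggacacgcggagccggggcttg
Egr4: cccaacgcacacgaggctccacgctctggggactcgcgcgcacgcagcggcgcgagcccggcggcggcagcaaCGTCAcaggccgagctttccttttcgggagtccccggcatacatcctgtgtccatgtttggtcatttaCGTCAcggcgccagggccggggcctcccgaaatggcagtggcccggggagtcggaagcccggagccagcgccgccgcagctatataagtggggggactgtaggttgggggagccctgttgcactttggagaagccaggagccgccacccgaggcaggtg
Npas4: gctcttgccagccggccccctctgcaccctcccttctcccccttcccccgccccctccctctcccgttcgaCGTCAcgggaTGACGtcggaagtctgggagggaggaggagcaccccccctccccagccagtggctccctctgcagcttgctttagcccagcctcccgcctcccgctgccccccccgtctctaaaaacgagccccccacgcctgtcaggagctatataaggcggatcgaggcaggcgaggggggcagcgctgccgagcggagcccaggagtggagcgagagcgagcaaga
Egr2: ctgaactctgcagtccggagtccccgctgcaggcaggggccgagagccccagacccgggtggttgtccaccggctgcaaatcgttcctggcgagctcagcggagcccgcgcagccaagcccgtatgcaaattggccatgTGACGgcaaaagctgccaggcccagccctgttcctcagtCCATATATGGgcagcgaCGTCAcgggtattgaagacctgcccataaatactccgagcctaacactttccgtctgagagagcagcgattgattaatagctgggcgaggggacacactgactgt
Dusp1: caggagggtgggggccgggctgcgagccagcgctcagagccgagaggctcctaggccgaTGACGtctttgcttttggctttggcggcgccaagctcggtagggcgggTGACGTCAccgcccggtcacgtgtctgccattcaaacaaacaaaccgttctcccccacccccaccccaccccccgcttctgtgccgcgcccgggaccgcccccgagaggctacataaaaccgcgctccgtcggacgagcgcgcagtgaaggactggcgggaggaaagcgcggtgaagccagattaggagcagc
Nr4a3: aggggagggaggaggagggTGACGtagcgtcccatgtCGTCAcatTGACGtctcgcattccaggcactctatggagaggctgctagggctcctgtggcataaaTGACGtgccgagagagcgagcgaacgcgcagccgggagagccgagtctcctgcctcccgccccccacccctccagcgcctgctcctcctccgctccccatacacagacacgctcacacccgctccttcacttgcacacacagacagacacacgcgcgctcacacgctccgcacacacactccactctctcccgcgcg

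The half-site TGACG was found in 4 of the 4 rule genes with a window: it occurred 2 times in Fos, 1 time in Fosb, 2 times in Egr4 and 2 times in Npas4. None of those 4 held the full site or a CArG box in this window. The printed Egr2 window held 2 half-sites and 1 CArG box, as did the 2 windows that overlap it, while of the other 2 listed for Egr2 the one starting at 67535249 held no match and the one starting at 67537316 held a CArG box and no half-site. Dusp1 held 3 half-sites counting both strands of its 1 full site, and Nr4a3 held 4 half-sites. Over 32851 windows of 27025 genes, 20.8% held TGACG, 1.79% the full site and 1.63% a CArG box. Counted per gene, over any of its windows, TGACG was held by 23.0% of genes. By the same count it was held by 2 of 5 other AP-1 subunits, 11 of 13 other immediate early transcription factors, 4 of 11 feedback inhibitors, 13 of 21 activity-induced effectors and 5 of 16 upstream regulators. Genes with several windows have more places for a match, and a match in these letters is a description and not a binding site.

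The scores fell into separate ranges. They were 11.45 in PNS replicate 1, 11.33 in PNS replicate 2, 11.09 in Ctrl replicate 3 and 10.98 in PNS replicate 4, which was the last library inside the high-score set. Just outside it came PNS replicate 3 at 10.10, followed by Ctrl replicate 1 at 10.03, Ctrl replicate 2 at 9.92 and Ctrl replicate 4 at 9.92. The gap between the sets was 0.88 on the log2 scale, larger than the range of 0.47 within the high-score set and of 0.18 within the low-score set. Dropping any 1 of the 5 genes from the score left the same 4 libraries on each side. Sequencing depth separated the same libraries: the high-score set held 15.1 to 30.5 M recovered reads and the low-score set 40.9 to 73.0 M, so score and depth cannot be told apart here. Between 18290 and 18702 genes had reads in the high-score libraries and between 18819 and 18961 in the low-score libraries. PNS replicate 4 stood apart from the other 7 on the first principal component of all genes (-46.9, against -3.05 to 16.1), which carried 29.0% of the variance, and Ctrl replicate 3 lay highest on the next one (31.3). In bulk tissue a larger share of active cells and more transcript per active cell cannot be told apart.

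Arc (chr15:74669083-74672570, minus strand) had the widest separation of the rule genes. Its normalized read count was 1907, 2101, 2559 and 2117 in Ctrl replicates 4, 2 and 1 and PNS replicate 3, and 5144, 6053, 7278 and 7849 in PNS replicate 4, Ctrl replicate 3 and PNS replicates 2 and 1. The lowest of the high-score values, in PNS replicate 4, lay well above the highest of the low-score values, in Ctrl replicate 1, and the difference of mean log2 values was 1.59. Fos (chr12:85473890-85477273, plus strand) was counted at 837, 783, 881 and 949.8 in the same low-score libraries and at 1344, 1810.4, 2335 and 2697 in the high-score libraries, a difference of 1.20. PNS replicate 4 had the lowest Fos of its set, and PNS replicates 1 and 2 the highest of the 8 libraries.

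Fosb (chr7:19302696-19310051, minus strand) was counted at 222, 309, 270.4 and 405 in the low-score libraries and at 619, 628, 986 and 968 in the high-score libraries, in the order used for Arc. PNS replicate 3 was the highest of the low-score set, and the difference was 1.40. Npas4 (chr19:4984355-4990316, minus strand) was counted at 642, 493, 554 and 483, and at 1183, 1364, 1096 and 1309, a difference of 1.19. Its high-score values lay within a narrow band, with Ctrl replicate 3 at the top. Egr4 (chr6:85511121-85513589, minus strand) was counted at 3723, 3426, 3728 and 3979, and at 6565, 5195, 6076 and 6324, and it differed least, by 0.70. These 5 genes chose the sets, so their separation follows from the rule.

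**Figure D1:**
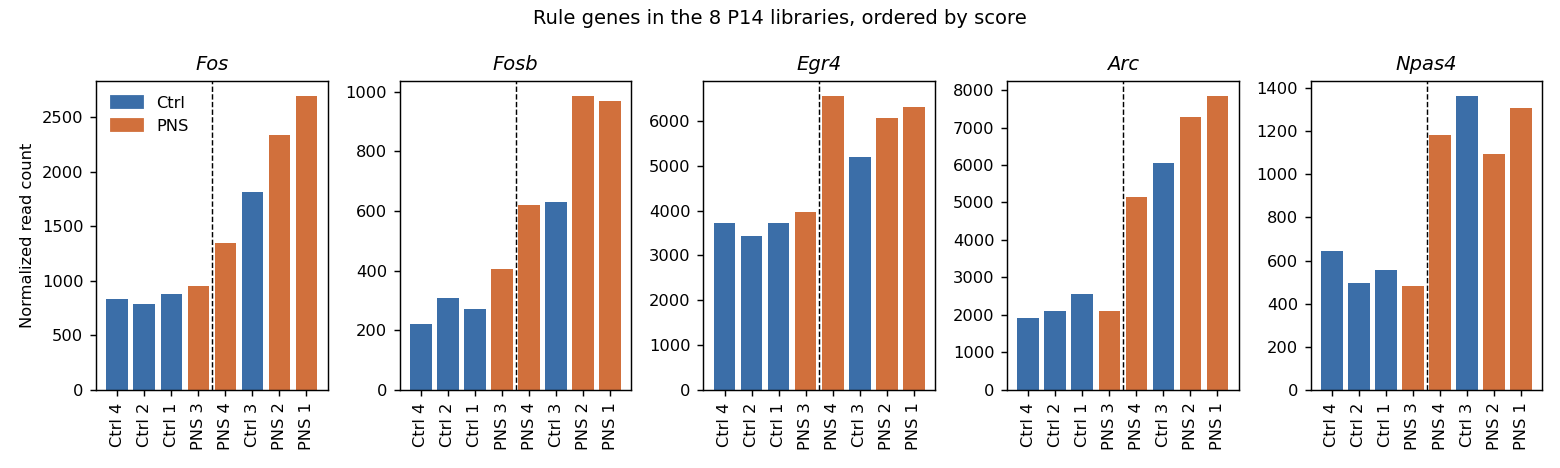
Normalized read counts (vertical axes, linear from 0) of the 5 genes that define the score, 1 bar for each of the 8 P14 libraries in order of score, blue for Ctrl and orange for PNS, with a dashed line between the sets. Arc stands between 1907 and 2559 left of the line and between 5144 and 7849 right of it, and Ctrl replicate 3 is the only Ctrl library on the right.

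Over the 15868 other genes with a mean of at least 10, the median difference between the sets was 0.0019 on the log2 scale, with quartiles at -0.07 and 0.08. The values of the sets did not overlap for 214 genes that were higher in the high-score set, which is 1.35% of the genes, and for 210 that were lower, 1.32%. With a fold of at least 1.5 required as well, 28 genes were higher (0.176%) and 31 lower (0.195%). Of the 15 genes in the first of these groups that had a mean of at least 50, 10 belonged to lists of activity genes, while 5 lower genes had a mean of at least 50 and 0 of the 31 lower genes were in those lists. The 4 lists hold 69 measured genes besides the rule genes: other AP-1 subunits, other immediate early transcription factors, feedback inhibitors and activity-induced effectors. Of these 69, 17 were higher without overlap (24.6%), 0 were lower without overlap and 55 had a difference above 0, with a median of 0.15. Without PNS replicate 4, 27 of the 69 did not overlap (39.1%, against 3.75% of all genes). Leaving out any other single library gave 17 to 20 genes (24.6% to 29.0%, against 1.87% to 3.24% of all genes).

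**Figure D2:**
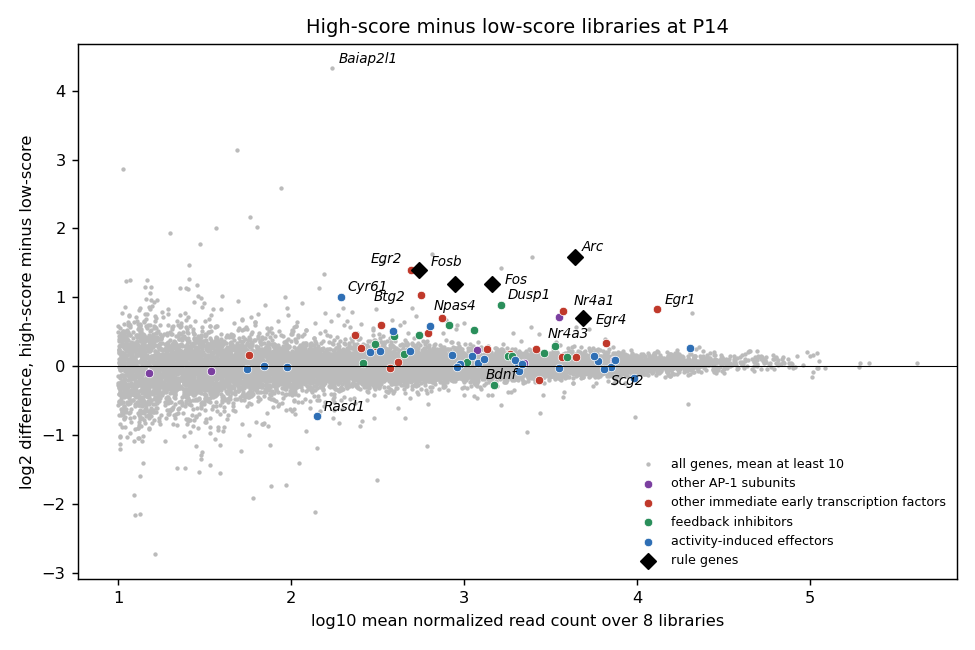
Difference of mean log2 values, high-score minus low-score libraries (vertical axis), against the log10 mean normalized read count over the 8 libraries (horizontal axis), 1 point per gene. Grey points are all genes with a mean of at least 10, coloured points the 4 activity lists and black diamonds the rule genes; Egr2 at 1.39, Btg2 at 1.03 and Dusp1 at 0.89 lie beside the rule genes, and Bdnf at 0.05 lies in the grey band.

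Among other immediate early transcription factors, 7 of 20 did not overlap and 18 had a difference above 0, with a median of 0.28. Egr2, a zinc finger factor of the Egr family, was counted at 250.3, 256, 276 and 259.6 in the low-score libraries and at 515, 477, 887 and 1013 in the high-score libraries (difference 1.39). The low-score libraries were nearly alike, and PNS replicates 2 and 1 stood above the other pair of the high-score set. Btg2, an antiproliferative co-regulator of transcription, was counted at 378, 305, 407 and 360.3, and at 591, 642, 736 and 1066 (1.03). Egr1, the founding member of the Egr family, was counted at 8889, 9998, 9586 and 9183, and at 19652, 14051, 17121 and 16474 (0.83), and was highest in PNS replicate 4. Nr4a1, an orphan nuclear receptor, was counted at 2462, 2387, 2752 and 2836, and at 2901, 3801, 6217 and 6298 (0.81). PNS replicate 4 was barely above the low-score libraries for Nr4a1, unlike for Egr1. The other 3 without overlap were Ier2 (0.70), Csrnp1 (0.59) and Egr3 (0.33).

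Genes of the same list did not all follow the score. Nr4a2, an orphan nuclear receptor like Nr4a1, was counted at 163 to 227 in the low-score libraries and at 255, 414 and 315 in 3 high-score libraries, but at 131 in PNS replicate 4. Klf2, a Krüppel-like factor, differed by 0.48 and Klf10 by 0.26, while Klf6 differed by -0.20, each with overlap. Crem, a CREB family factor with an inducible repressor form, stood at -0.02.

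Of the 6 other AP-1 subunits, Junb was the 1 that did not overlap. It was counted at 2841, 2337, 2693 and 2779 in the low-score libraries and at 3226, 4123, 5088 and 5337 in the high-score libraries (0.72), with PNS replicate 4 again the lowest of its set. Jun differed by 0.05, Jund by 0.10, Fosl2 by 0.24, Fosl1 by -0.07 and Atf3 by -0.10. All of these overlapped between the sets, and Fosl1 and Atf3 had few reads, with mean normalized counts of 34.6 and 15.0. The list's median was 0.08.

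Feedback inhibitors of MAP kinase and related signalling had 6 of 15 genes without overlap and 14 above 0, with a median of 0.19. Dusp1, a nuclear phosphatase of MAP kinases, was counted at 1101, 1042, 1265 and 1131 in the low-score libraries and at 1794, 1892, 2305 and 2507 in the high-score libraries (0.89). Trib1, a pseudokinase that targets proteins for degradation, was counted at 787, 917, 985 and 1038, and at 1439.9, 1068, 1509 and 1389 (0.53). In both genes the sets were separate, for Trib1 by a small margin between PNS replicate 3 and Ctrl replicate 3. Spry4, an inhibitor of receptor tyrosine kinase signalling, differed by 0.46, Dusp5 by 0.44, Spred3 by 0.19 and Dusp14 by 0.16. Gadd45b, a stress-induced gene that also takes part in DNA demethylation in neurons, was counted at 233 to 285 in the low-score libraries and at 339 to 508 in 3 high-score libraries, but at 146 in PNS replicate 4. Rgs2, a regulator of G protein signalling, differed by -0.27.

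Activity-induced effectors, which carry the response to synapses and to secreted signals, had the smallest median of the 4 lists. Of 28, 3 did not overlap and 19 had a difference above 0, with a median of 0.06. Cyr61, a secreted matrix protein, was counted at 154, 84.4, 160.0 and 122 in the low-score libraries and at 223, 264, 266 and 270.5 in the high-score libraries (1.01). Its 4 high-score values were close together. Arl4d (0.59) and Arl5b (0.15), small GTPases of the ARF family, were the other 2. Bdnf, the neurotrophin, was counted at 1061 to 1434 in the low-score and at 1090.0 to 1297 in the high-score libraries (0.05), so the ranges largely coincided. The sets also overlapped for Nptx2 (-0.06), Scg2 (-0.04), Vgf (0.27), Pcsk1 (0.05), Nrn1 (0.15) and Homer1 (0.07), which encode a pentraxin, secretory proteins and their protease, a surface ligand and a synaptic scaffold; none of these 7 was free of overlap, and gene-level values do not separate the short inducible form of Homer1. Rasd1, a small GTPase that glucocorticoids also induce, differed by -0.72 with overlap.

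**Figure D3:**
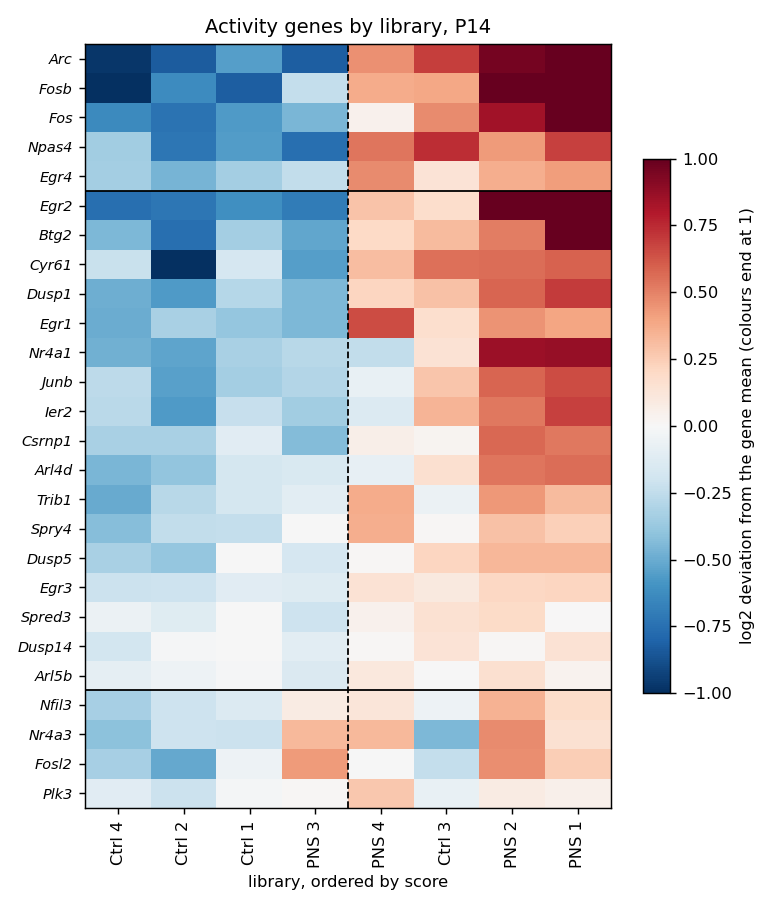
Deviation of log2(value + 1) from the gene's mean over the 8 P14 libraries (colour, ending at 1 in both directions), for the 5 rule genes at the top, the 17 listed activity genes without overlap between the sets in the middle, and 4 listed genes without overlap between PNS and Ctrl at the bottom. Columns are libraries in order of score with a dashed line between the sets; each gene of the top and middle blocks is lower in every column left of the line than in any column right of it, while Nr4a3 in the bottom block is blue in Ctrl replicate 3 and red in PNS replicate 3.

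Transcripts that encode proteins which switch these genes on were described from a list of 21 upstream regulators. None of the 21 was without overlap in either direction, 18 had a difference above 0, and the median was 0.06. Within both labels 7 of the 21 were above 0, and the list score was 0.16 in PNS replicate 4 and -0.07 to 0.02 in the rest. Crebbp, the coactivator of CREB, differed by 0.26, Grin1, the obligatory NMDA receptor subunit, by 0.22, Srf by 0.05 and Creb1 by 0.01. Mef2c differed by -0.04 and Mapk3, the kinase ERK1, by -0.04.

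Because 3 of the 4 PNS libraries were in the high-score set and 3 of the 4 Ctrl libraries in the low-score set, the difference was also taken within each label. Within Ctrl it is replicate 3 minus the mean of replicates 1, 2 and 4, and within PNS it is the mean of replicates 1, 2 and 4 minus replicate 3. Fos differed by 1.12 within Ctrl and 1.10 within PNS, Arc by 1.48 and 1.65, and Npas4 by 1.28 and 1.30. Egr2 differed by 0.87 and 1.57, Btg2 by 0.83 and 1.10, Dusp1 by 0.74 and 0.95, Junb by 0.66 and 0.68, and Cyr61 by 1.04 and 1.04. The ranking placed Ctrl replicate 3 and PNS replicate 3 on the side away from the rest of their labels, so the sign of the rule genes' values follows from it. For Egr2, Btg2, Dusp1, Junb and Cyr61 the sign is fixed too. A gene higher without overlap between the sets must be above 0 within both labels. Ctrl replicate 3, on which the differences within Ctrl rest, also had the highest score of olfactory bulb markers (1.17, with 1.001 in Ctrl replicate 2 and -0.78 to -0.04 in the other 6 libraries), and the part of that tissue was not tested. Of the 69 listed genes, 38 had a difference above 0 within both labels (55.1%), where 24.6% of all genes did. The 38 include the 17 listed genes without overlap, whose sign was fixed in this way. Each of these differences rests on 1 library against 3.

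**Figure D4:**
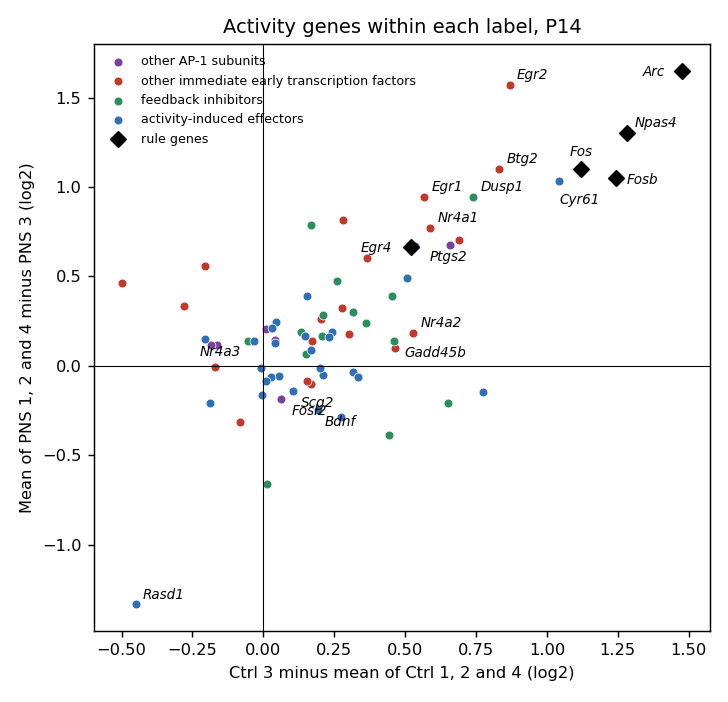
Difference in log2(value + 1) within Ctrl (horizontal axis, replicate 3 minus the mean of replicates 1, 2 and 4) and within PNS (vertical axis, the mean of replicates 1, 2 and 4 minus replicate 3), 1 point per gene of the 4 activity lists and a diamond for each rule gene. Arc at 1.48 and 1.65 lies at the upper right, and Rasd1 at -0.45 and -1.33 at the lower left.

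The stress comparison itself used the labels and not the score. Limma, fitted on log2(value + 1) over 15873 genes with Benjamini-Hochberg adjustment, called 0 genes (0%) between PNS and Ctrl at P14; 479 had an unadjusted p below 0.05, edgeR on recovered reads called 0 (475 unadjusted) and DESeq2 called 8 (439 unadjusted). Of the rule genes, Fosb averaged 357 ± 184 in Ctrl and 745 ± 282 in PNS (SD, n = 4 each, log2 difference 1.09 ± 0.34 SE), Fos 1078 ± 490 and 1831 ± 820 (0.73), and Arc 3155 ± 1951 and 5597 ± 2596 (0.83). Egr4 averaged 4018 ± 797 and 5736 ± 1188 (0.51), and Npas4 764 ± 405 and 1017 ± 367 (0.44). For each of the 5 the limma adjusted p was 0.988 and the labels overlapped, with Ctrl replicate 3 inside the PNS range or above it and PNS replicate 3 inside the Ctrl range or below it. Of the 69 listed genes, 50 had a higher mean in PNS, where 50.6% of all genes did. The median was 0.08, against 0.0015 over all genes. An unadjusted limma p below 0.05 was found for 12 of the 69, beside the 479 of all 15873 genes, and an adjusted one for 0. With the score as a covariate the log2 difference fell from 0.62 to -0.03 for Btg2 and from 0.52 to -0.03 for Dusp1. It fell from 0.51 to 0.29 for Trib1 and stayed at 0.57 for Fosl2. Btg2, Dusp1 and Trib1 had already separated by this same score, so a fall on adding it follows in part from that. Label, score and depth partly coincide in these libraries, and the part of each was not tested.

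Nr4a3, an orphan nuclear receptor of the same family as Nr4a1, followed the label and not the score. It was counted at 2194, 2213, 1866 and 1916 in Ctrl replicates 1 to 4 and at 2837, 3545, 3192 and 3188 in PNS replicates 1 to 4, so the labels did not overlap, as for 2.12% of all genes. The means were 2047 ± 182 and 3190 ± 289 (SD, n = 4 each), a log2 difference of 0.64 ± 0.083 (SE), with the smallest p of all genes (1.31e-05) but a limma adjusted p of 0.209. In edgeR its adjusted p was 0.234 and in DESeq2 1.61e-07, so the call depends on the tool. Leaving out single libraries moved the limma adjusted p between 0.0823, without PNS replicate 4, and 1, without Ctrl replicate 3. With the score as a covariate the log2 difference was 0.70 and the limma adjusted p 0.978. Between the high-score and low-score sets Nr4a3 differed by 0.25, and by -0.17 within Ctrl and -0.01 within PNS.

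Another 3 of the 69 genes had no overlap between the labels, 4 in all or 5.8%. Fosl2, an AP-1 subunit, averaged 952 ± 126 in Ctrl and 1413 ± 200 in PNS (SD, n = 4 each), a log2 difference of 0.57 ± 0.12 (SE) where the adjusted p was 0.988 in limma but 0.0429 in DESeq2. Nfil3, a basic leucine zipper repressor, averaged 269.7 ± 21.6 and 348 ± 28.7, and Plk3, a polo-like kinase, averaged 792 ± 45.7 and 916 ± 74.0. Both had a limma adjusted p of 0.988. Within PNS Fosl2 was 0.19 lower on the log2 scale in replicates 1, 2 and 4 than in replicate 3, the opposite order to Fos.

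Outside the activity lists, the genes without overlap were described by size. Among 169 that were higher with a mean of at least 50, leaving 12 predicted genes unnamed, Baiap2l1, an adaptor of the actin cytoskeleton, came first. It was counted at 7.81 to 11.2 in the low-score libraries, at 21.0 in Ctrl replicate 3, and at 288.5, 577 and 445 in PNS replicates 4, 2 and 1. The value in Ctrl replicate 3 was nearer to the low-score libraries than to its own set, and the difference was 4.32. DESeq2 called Baiap2l1 between the labels (adjusted p of 0.0109) and limma did not (adjusted p of 0.988). Ighm, the constant region of immunoglobulin M, differed by 0.79, Myoc, the secreted protein myocilin, by 0.75, Lgr5, a receptor for R-spondins, by 0.65, and Car14, a carbonic anhydrase, by 0.59. Lgr5 was counted at 135 in Ctrl replicate 3 and at 53.8 to 62.0 in the other high-score libraries. Epha2 (0.55), an ephrin receptor, Ngfr (0.50), the p75 neurotrophin receptor, and Gata2 (0.48), a transcription factor, were also in the first 12, with Sult1a1, Zc3h3, Tinagl1 and Pcdhb13 (0.58 to 0.48). When the 2 highest and 2 lowest libraries were taken within each label, Epha2 turned to -0.0052.

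Among the 163 genes with a mean of at least 50 that were lower without overlap, leaving 10 predicted genes unnamed, the pseudogene Znf41-ps (-0.998) and the zinc finger gene Zfp991 (-0.87) came first, and both have close copies that could share reads. Zfp991 was counted at 114, 55.5, 98.1 and 120 in the low-score libraries and at 48.5, 51.4, 50.9 and 51.5 in the high-score libraries. Ctrl replicate 2 was nearer to the high-score libraries than to the rest of its own set. Cd59a, an inhibitor of the complement attack complex, was counted at 223, 213, 295 and 230.1, and at 165, 166, 94.3 and 125 (-0.82). Others were Ddo (-0.62), which degrades D-aspartate, Hpgds (-0.52), a prostaglandin D synthase, Kl (-0.49), the ageing suppressor klotho, Rfc4 (-0.49), a subunit of the replication clamp loader, and Fam19a2 (-0.46), a secreted brain protein. BC051226, Frrs1, Etnk2 and Erich1 lay between -0.70 and -0.51, and of these Etnk2 turned to 0.0071 and Erich1 to 0.0581 with the ranking within each label.

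Markers of cell types and of neighbouring tissue were followed in the same libraries. Slc17a7, the vesicular glutamate transporter of cortical projection neurons, was counted at 91894 to 141254, and 0 genes on the marker lists were at 0 in all 8 libraries. Projection neuron markers had 10 of 11 differences above 0 (median 0.13) and GABAergic interneuron markers 2 of 10 (median -0.08), each with 0 genes without overlap. Astrocyte (median 0.01) and microglia (0.04) markers had smaller medians. Meningeal fibroblast markers were above 0 in 9 of 10 (median 0.23), with a list score of -0.67 in PNS replicate 3 and -0.12 to 0.39 in the other 7 libraries, and pericyte and smooth muscle markers in 9 of 10 (median 0.11), both with 0 genes without overlap. Endothelial markers were above 0 in 10 of 10 (median 0.14), with Tek, the angiopoietin receptor, without overlap. Over all other genes 50.7% of differences were above 0. Fewer were above 0 within both labels: 6 of 11 projection neuron, 5 of 10 meningeal, 4 of 10 endothelial and 2 of 10 pericyte and smooth muscle genes. PNS replicate 4 had the highest list score for endothelial (0.31), pericyte and smooth muscle (0.21) and projection neuron markers (0.18). It had the lowest for GABAergic markers (-0.23). Glucocorticoid-responsive genes had a median of 0.09, with 2 of 16 higher without overlap, where 1.35% of all genes were. Sult1a1, named above, was 1 of these 2. Clock (0.06), heat shock (0.03) and hypoxia-induced genes (0.01) had 0 without overlap.

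Myelin genes were lower in the high-score libraries on average but did not sort by set. The difference was below 0 in 10 of 10, from -0.95 for Mobp to -0.25 for Cnp, with a median of -0.65 and 0 genes without overlap. The list score, the mean deviation of its genes from their means over the 8 libraries, was -1.57 in PNS replicate 4 and -0.39 in PNS replicate 1, but 0.31 and 0.39 in the other high-score libraries; in the low-score set it was -1.04 in Ctrl replicate 2 and 0.71 to 0.81 in the rest. Mbp, the myelin basic protein, was counted at 8193 in PNS replicate 4, at 10249.8 in Ctrl replicate 2 and at 13309 to 29406 in the others. Haemoglobin genes were highest in PNS replicate 4 and Ctrl replicate 3: Hbb-bs was counted at 15176 and 6683 there and at 2465 to 4382 in the other 6. The list score of red blood cell genes ranged from -0.58 to 1.29 in the high-score and from -0.45 to 0.06 in the low-score set. Choroid plexus markers, 3 genes tested of 8 listed, had separate scores, from -0.33 to -0.08 in the high-score and from 0.07 to 0.36 in the low-score libraries. Of these 3, 1 differed the other way, above 0, and only Kl, named above, was without overlap. The other genes had few reads: Aqp1 averaged 31.75 in Ctrl and 28.38 in PNS, and Clic6 22.98 and 24.82. The part of these cell types in the activity gene differences was not tested.

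**Figure D5:**
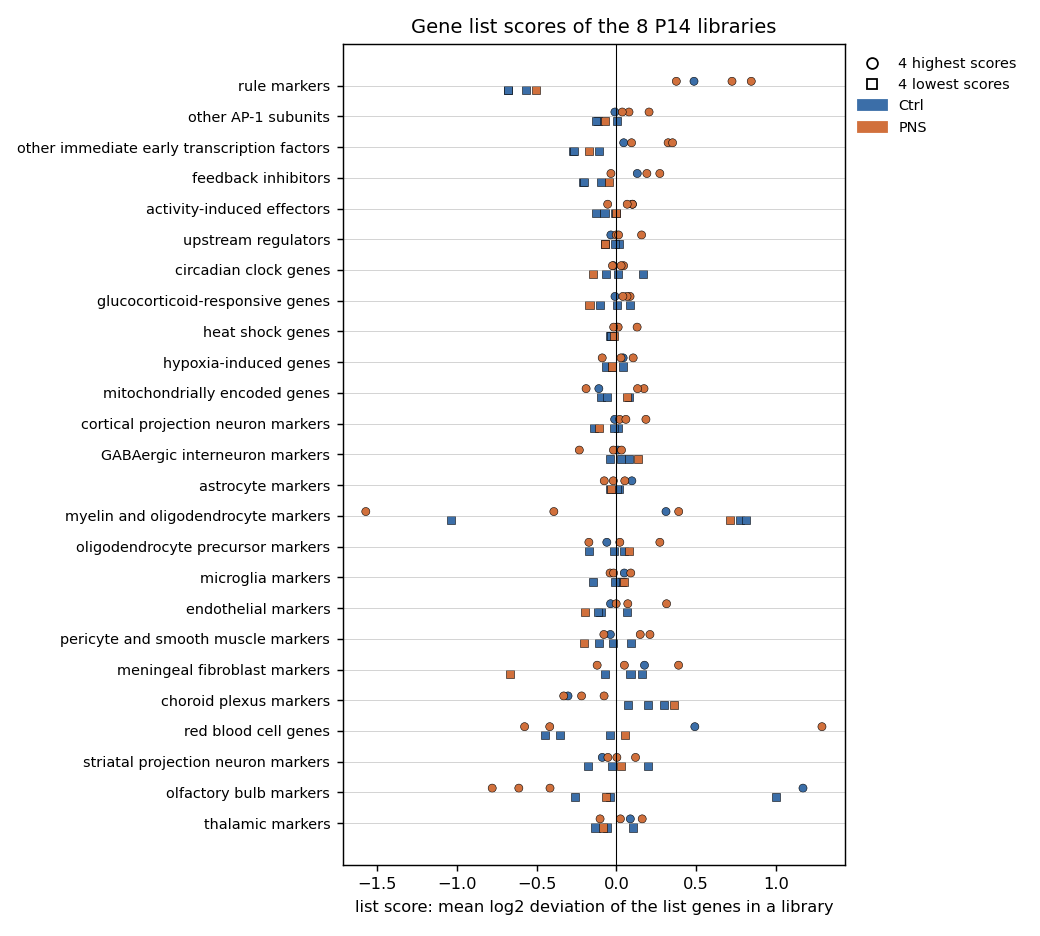
List score of each of 25 gene lists (horizontal axis, mean log2 deviation of the list's genes from their means over the 8 P14 libraries) with 1 symbol per library, circles for the 4 highest and squares for the 4 lowest activity scores, blue for Ctrl and orange for PNS. Circles and squares separate for the rule genes, the other immediate early transcription factors, the feedback inhibitors and the choroid plexus markers (3 genes tested). Myelin spreads from -1.57 to 0.81, with a circle and a square at the lower end and 3 squares at the upper end.

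The 8 P1 libraries were not used by the rule and were ranked in the same way. Here the score ran without a break from 5.98 to 7.47, and the gap at the middle was 0.16 against ranges of 0.62 and 0.71 within the sets. The high-score set held PNS replicates 1, 2 and 3 and Ctrl replicate 1, with 47.6 to 52.6 M reads, and the low-score set 34.0 to 58.8 M, so depth overlapped at this age. The tables of the ages were normalized separately, so levels are not compared between them. Fosb was counted at 7.92, 25.4, 13.9 and 13.5 in the low-score libraries and at 36.6, 28.6, 49.1 and 57.5 in the high-score libraries, and was the 1 rule gene of 5 without overlap (difference 1.5). Arc differed by 1.22, Fos by 0.75, Egr4 by 0.42 and Npas4 by 0.24, each with overlap between the sets.

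The wider set of activity genes was then read at P1. Of 68 tested, 2 were higher without overlap (2.94%, where 4.45% of all genes were), Dusp14 (0.52) and Nptx2 (0.53), and 45 had a difference above 0, with a median of 0.09. Of the 17 that did not overlap at P14, 15 had a difference above 0 at P1, among them Btg2 at 0.43, Junb at 0.28, Nr4a1 at 0.27, Egr1 at 0.24, Egr2 at 0.17 and Dusp1 at 0.14. The median over all other genes at P1 was -0.018. Signs above 0 were not particular to activity genes at this age. They were found for 10 of 10 meningeal fibroblast, 10 of 10 pericyte and smooth muscle and 9 of 10 endothelial markers. Upstream regulators had 6 of 21 above 0 and projection neuron markers 4 of 11. The high-score set held 3 PNS libraries and 1 Ctrl library at both ages, and the part of the label in this was not tested. Of 210 genes higher without overlap at P14 and tested at both ages, 14 were so at P1 (6.67%, against 4.50% of 15497 genes), and of 202 lower ones 16 were lower at P1 (7.92%, against 3.07%; over all P1 genes 2.92% were lower without overlap). Olfactory bulb markers, a sign of neighbouring tissue, were higher in the high-score P1 libraries for 8 of 8 genes, with a median of 2.38 and list scores from 0.06 to 2.20 against -1.64 to -0.87, and their part in the P1 differences was not tested. At P14 that list's median was -0.10, and its 2 highest scores were in Ctrl replicate 3, of the high-score set, and Ctrl replicate 2, of the low-score set.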

How the data were processed

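Bulk poly(A) RNA-seq was made from dissected cortex with a column kit, per the labels' protocols. Reads were trimmed with cutadapt, aligned with STAR 2.7.3a to GRCm38, counted with HTSeq and normalized with DESeq2, per the submitters' processing notes. The annotation release and library strand were not given in the sources used here, and genes that overlap or resemble each other are therefore uncertain. The signal values deposited by the authors are normalized read counts, 1 table per age (19014 genes at P14 and 19748 at P1). At least 99.95% of positive values were whole multiples of 1 read within 0.0051, so whole reads were recovered for depth, for edgeR 4.0.16 and for DESeq2 1.42.0.

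The design had foreseen raw counts as a possibility; these normalized values were instead tested as log2(value + 1) in limma 3.58.1 with its trend option (R 4.3.3). Genes needed a mean of 10 or more, and p-values were adjusted by Benjamini-Hochberg over all genes tested, with a threshold of 0.05. The sets of 4 libraries were compared by the difference of mean log2(value + 1) and by whether their ranges overlapped. Named genes were the 5 rule genes, the listed activity genes, and from other genes without overlap and with a mean of at least 50 the 12 largest differences in each direction; 12 higher and 10 lower predicted genes among those were not named. The scripts were tested on simulated data. Members and lists were chosen with earlier results of these data known. Replicates of a group were not duplicates (chi-square per gene 6.16 to 50.3 over 12 pairs). Positions are from GENCODE M21, which matched 18980 of the P14 genes. Bcl11b, Folr1, Kcne2, Hba-a2, Gbx2 and 5 mitochondrial genes of the lists were not analysed here. Alternatives were other pseudocounts, filters, scalings, scores and tools, the replicate block, ranking within labels and leaving out each library.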

Additional observations from a re-analysis of the deposited data

Results flagged for a closer look

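In groups of 4 libraries, a value was picked out when its distance to the nearest of the others took up most of the group's range (Dixon's criterion). Of 154 groups examined at P14, 12 were picked out. Chance alone picks out about 1 in 20 when groups are independent and chosen without regard to their values. That rate cannot be set against this count. The groups include the rule genes and genes named because the sets did not overlap, where the ranking itself can set a library apart from its label.

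Within Ctrl, replicate 3 stood apart for Fos (1810 against 783.5 to 880.7 in the others), for Egr2 (476.6 against 250.3 to 275.9), for the 5-gene score (11.09 against 9.92 to 10.03) and for the list score of the rule genes (0.4864 against -0.68 to -0.57). Within PNS, replicate 3 stood apart for Egr4 (3979 against 6076 to 6565). These libraries are the ones that the ranking placed on the other side from the rest of their label. The values therefore follow from the rule for Fos, Egr4 and both scores. The scores differ from each other only by a constant, so the same outlier was counted under each.

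PNS replicate 3 also stood apart for genes outside the activity lists. Baiap2l1 was at 7.81 against 288.5 to 576.9, Myoc at 45.15 against 105.5 to 108.8 and Gata2 at 118.1 against 164.9 to 172.5. It was high for Zfp991 (119.8 against 48.5 to 51.5), Znf41-ps (101.6 against 34.3 to 36.7) and Fam19a2 (1446 against 1006 to 1049). These genes were named because the sets did not overlap, and PNS replicate 3 is the 1 PNS library in the low-score set.

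Ctrl replicate 4 was low for projection neuron markers, with a list score of -0.1398 against -0.015 to 0.0091.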

How the results depend on the processing

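The same 4 libraries formed each set without any 1 of the 5 genes, with pseudocounts of 0.5 or 5, and with TMM scaling, which gave 212 higher and 223 lower genes without overlap. The count of genes at least 1.5-fold higher was 28, against 48 with no filter and 15 with a mean of at least 50. The count at least 1.5-fold lower was 31, against 94, 5, and 19 when libraries were ranked within each label. That ranking reversed Epha2 (-0.0052), Etnk2 (0.0071) and Erich1 (0.0581). Leaving out 1 library raised the counts, as fewer libraries overlap less: 296 to 595 genes were higher and 337 to 515 lower, with 30 to 85 and 39 to 108 at least 1.5-fold. PNS replicate 4 gave the highest counts of higher genes, 595 and 85.

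PNS against Ctrl gave 0 calls under each pseudocount and filter, with the score as a covariate and with edgeR, and 8 with DESeq2, of which Nr4a3 and Fosl2 are listed activity genes. Leaving out 1 library gave 0 to 5: 5 without Ctrl replicate 4, 1 without PNS replicate 2, 1 without PNS replicate 3 (Baiap2l1) and 3 without PNS replicate 4. Replicate numbers did not pair the libraries (correlations of deviations -0.13, -0.01, -0.07 and 0.03, and 0 of 8 libraries correlated best with their own number), and the replicate block gave 0 calls. Differences of single genes between the sets were counted once per gene and setting, apart from leaving out a library. Of these values 479 kept their sign and size, 24 moved by more than the replicate spread and 3 reversed. The filters and the scores without 1 gene left both sets the same, so they could not change these values. Many of the 479 were therefore fixed in advance, and all 3 reversals came from the ranking within each label. Depth limits genes of low count most in Ctrl replicate 3, at 15.1 M reads.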
